A study of Mus musculus with 6 samples.

Results

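Ly6e, Slco1a4 and Myl9 are genes of the vessel wall of the brain, and each was measured by 1 probe of the 11502 on a mouse brain cDNA microarray. They were chosen by gene symbol, with their values on these 6 arrays already known, so those values are given as a description. All 3 were among the 6146 genes, and the 9685 features in all, that remained after missing values were filtered. Each array compared total RNA of whole brain from male mice of 9 weeks: the Cy5 dye carried RNA of mice given naloxone, which blocks opioid receptors, for 10 min, and Cy3 carried RNA of mice given saline for the same time. NY1DD mice, which carry a transgene that models sickle cell disease, gave 3 arrays, and C57BL/6J wild-type mice gave the other 3. The saline RNA of an array came from the same strain as its naloxone RNA, and dyes were never swapped, so in the mean of a strain naloxone and dye cannot be told apart. The labels do not say how many animals stand behind an array, so the p-values measure the spread between arrays, which may be technical. C57BL/6J replicates 1 and 2 share a number in their titles whose meaning is not given. Such numbers are lower on every NY1DD array than on every C57BL/6J array, so strain and whatever they stand for cannot be told apart.

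Brain capillaries are built of endothelial cells joined by tight junctions, which form the blood-brain barrier, and are wrapped by pericytes. Arterioles have a coat of smooth muscle; pericytes and smooth muscle together are called mural cells. Ly6e encodes a small protein tethered to the cell surface by a lipid anchor, from the Ly6 family. It is abundant in endothelium and is also made by immune and other cells. Slco1a4 encodes an organic anion transporter of the endothelial membrane that carries bile acids, steroid conjugates and many drugs, among them some opioid peptides. Myl9 encodes the regulatory light chain of smooth muscle myosin, whose phosphorylation by myosin light chain kinase starts contraction.

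On GRCm38.p6, RefSeq places Ly6e at chr15:74955025-74959904, Slco1a4 at chr6:141805438-141856284 and Myl9 at chr2:156775408-156781657. The part of each gene that its cDNA probe covers is not given in the sources used here. The stretch just before the annotated gene is shown for Slco1a4 and Myl9, from RefSeq sequence on the strand of the gene. This sets a transporter gene of endothelium beside a myosin gene of smooth muscle. In which cells either stretch acts as a promoter was not tested. Capitals mark matches on either strand to the CArG box, the site of serum response factor that many smooth muscle genes carry, or to GGGCGG, the GC box.
Slco1a4: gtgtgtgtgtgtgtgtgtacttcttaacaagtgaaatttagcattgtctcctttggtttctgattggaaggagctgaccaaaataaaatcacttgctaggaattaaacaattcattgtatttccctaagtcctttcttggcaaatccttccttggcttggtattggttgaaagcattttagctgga
Myl9: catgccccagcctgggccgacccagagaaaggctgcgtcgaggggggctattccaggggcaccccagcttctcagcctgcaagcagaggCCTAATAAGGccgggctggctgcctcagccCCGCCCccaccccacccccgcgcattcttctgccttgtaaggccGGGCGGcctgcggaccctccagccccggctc
The Slco1a4 stretch (chr6:141856285-141856470, minus strand, 186 bases) is 37.6% G and C and has no match. The Myl9 stretch (chr2:156775214-156775407, plus strand, 194 bases) is 70.6% G and C. It has 1 CArG box, at chr2:156775303-156775312, and 2 GC boxes. The full window of 300 bases that it comes from holds 1 CArG box and 3 GC boxes, the last across the annotated gene start. Over all 32851 promoter windows of 300 bases in the table, 1.63% hold a CArG box and 35.7% a GC box. TATAAA (13.6% of windows) and AGGTCA (16.3%), a half-site of nuclear receptors, were searched on both strands and occur in neither gene's window. A match is a string of letters and shows no binding.

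Each value below is a log2 ratio centred on the median of its array. The ratio is likely naloxone over saline, since the series names the dyes but not the numerator; the other way round, all signs would turn. A ratio says nothing of how abundant a transcript is, so the level of vessel markers in this brain RNA could not be checked. In whole-tissue RNA, more cells of a type and more RNA per cell cannot be told apart. Usable probes ran from 11155 to 11413 per array. Well position on the source plates took up 27.5% of the variance of NY1DD replicate 2, against 3.20% to 11.4% on the other arrays. Over all features the arrays correlated weakly. Pearson's r was 0.02 to 0.19 between NY1DD arrays, 0.12 to 0.15 between C57BL/6J arrays and -0.07 to 0.18 across the strains.

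Ly6e was positive and nearly level on all arrays. Its log2 ratio was 0.40, 0.37 and 0.33 on NY1DD replicates 1 to 3. On C57BL/6J replicates 1 to 3 it was 0.49, 0.38 and 0.35. The strains overlap, and the whole span of the 6 arrays is 0.16. After a correction for well position the NY1DD mean was 0.22 and the strains no longer overlapped. The values are given with the source plates, beside the share of all features that were apart before correction. The NY1DD mean was 0.37 ± 0.03 (SD, n = 3), or 1.29-fold, and the C57BL/6J mean 0.41 ± 0.08 (SD, n = 3), or 1.33-fold. The average of the strains was 0.39 (SE 0.09 from the limma fit), or 1.31-fold. Its SD within strains, pooled over both, was 0.059, lower than that of all but 0.447% of the features with 6 values, where the median SD was 0.315. Ly6e was thus a small ratio measured with little spread, and its values were known when it was chosen. On each array it lay at or above percentile 82.4 of all features.

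Slco1a4 was positive throughout NY1DD and near 0 in C57BL/6J. Its log2 ratio was 0.60, 0.28 and 0.54 on NY1DD replicates 1 to 3. On C57BL/6J replicates 1 to 3 it was 0.10, 0.17 and -0.10. The lowest NY1DD array stood above the highest C57BL/6J array, by 0.28 against 0.17, and the C57BL/6J values lie on both sides of 0. The NY1DD mean was 0.47 ± 0.17 (SD, n = 3), or 1.39-fold, and the C57BL/6J mean 0.06 ± 0.14 (SD, n = 3), or 1.04-fold. The average of the strains, 0.26 (SE 0.10), therefore comes mostly from NY1DD.

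Myl9 was spread widely in both strains. Its log2 ratio was 0.18, 0.80 and 0.60 on NY1DD replicates 1 to 3. On C57BL/6J replicates 1 to 3 it was -0.06, 0.74 and 0.07. In each strain replicate 2 is the highest array, and without it the C57BL/6J mean goes from 0.25 to 0.0045. The NY1DD mean was 0.53 ± 0.31 (SD, n = 3), or 1.44-fold, and the C57BL/6J mean 0.25 ± 0.43 (SD, n = 3), or 1.19-fold. The average of the strains was 0.39 (SE 0.14), close to that of Ly6e, from arrays whose pooled SD was 0.376 against 0.059 for Ly6e.

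**Figure D1:**
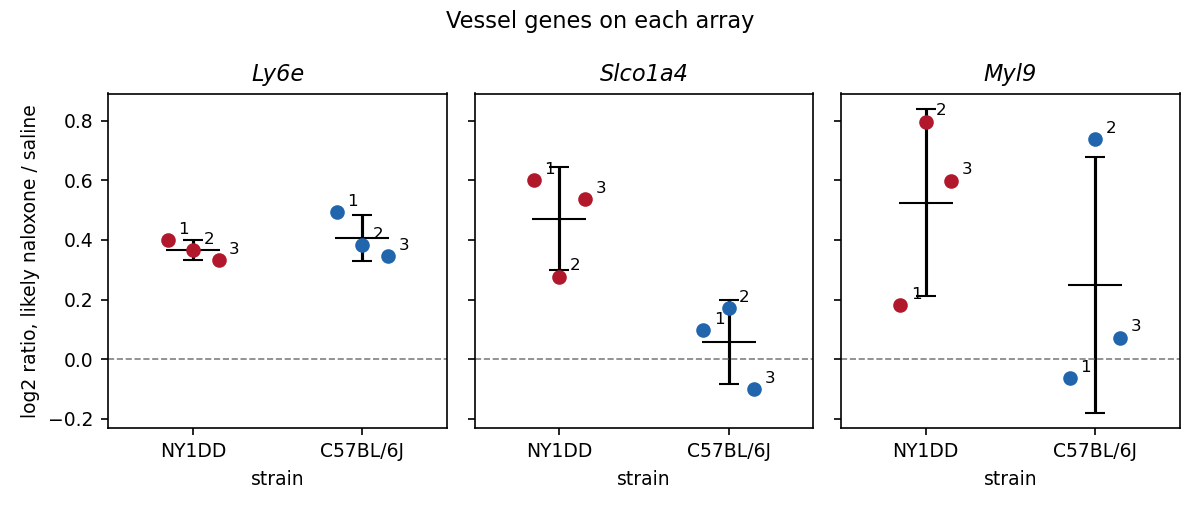
Log2 ratio (vertical axis, likely naloxone over saline) of Ly6e, Slco1a4 and Myl9 on each of the 6 arrays, by strain (horizontal axis); points are arrays with their replicate number, and bars are the mean and SD of 3 arrays. Ly6e spans 0.16 over all arrays, the strains are apart for Slco1a4, and Myl9 spans 0.86.

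Of the 3 genes, Ly6e was positive on 6 of 6 arrays, and Slco1a4 and Myl9 on 5 of 6. Among features with 6 values, 2.45% were positive on all 6 arrays and 15.6% on at least 5. The genes were chosen with these signs known. They did not follow one another from array to array: over the 6 arrays Pearson's r was 0.31 for Slco1a4 with Myl9, -0.17 for Ly6e with Slco1a4 and -0.56 for Ly6e with Myl9, given as a description since the arrays share the centring.

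The comparison of the strains asks whether the response to naloxone differs in sickle mice. A dye bias common to the arrays cancels in it, but a difference that goes with the title numbers does not. The 3 genes were chosen with the strain means known, so their differences and intervals are not independent of the choice. For Slco1a4 NY1DD minus C57BL/6J was 0.42 (SE 0.20, 95% interval -0.05 to 0.88, limma adjusted p = 0.969), or 1.33-fold. Its arrays did not overlap, which held for 9.41% of the features with 6 values in either direction and for 5.21% with NY1DD above. For Myl9 the difference was 0.28 (SE 0.29, interval -0.40 to 0.95, limma adjusted p = 0.969). For Ly6e it was -0.04 (SE 0.17, interval -0.45 to 0.37, limma adjusted p = 0.987). None of the 3 passed, and limma called 0 of 9685 features (0%) in this comparison at an adjusted p under 0.05, with 436 (4.5%) at an unadjusted p under 0.05. The interval of Ly6e runs from 0.731-fold to 1.29-fold and that of Slco1a4 from 0.969-fold to 1.84-fold, so a difference between strains within these bounds is not excluded by these arrays.

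**Figure D2:**
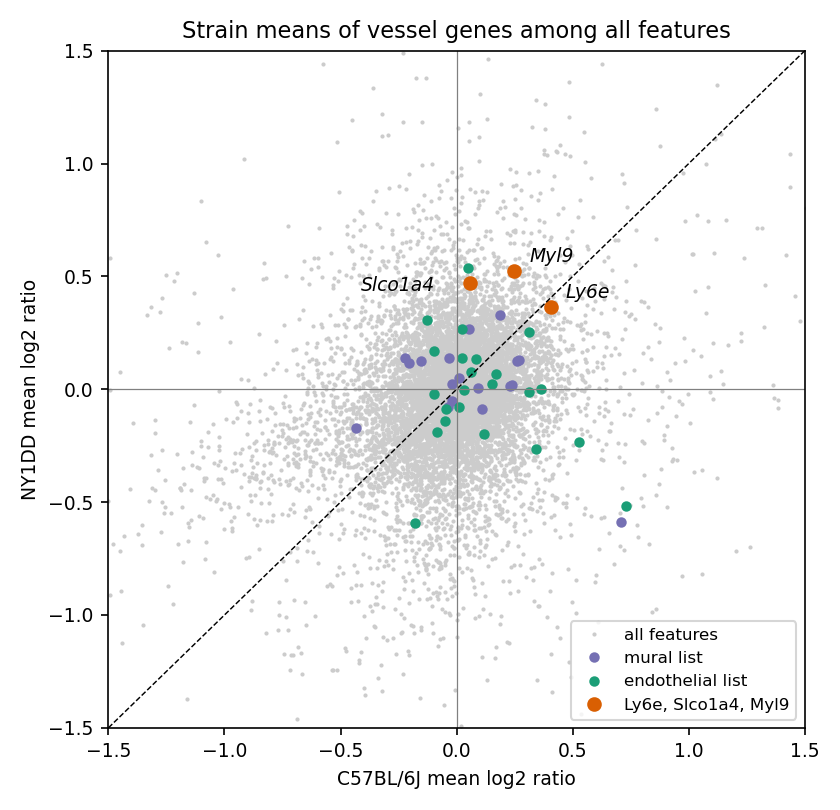
NY1DD mean log2 ratio (vertical axis) against the C57BL/6J mean (horizontal axis) for all features in grey and for vessel genes in colour; the dashed line marks equal means, and features beyond 1.5 on either axis lie outside the frame. Ly6e lies near the line, while Slco1a4 and Myl9 lie above it, with NY1DD means of 0.47 and 0.53.

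In NY1DD the source plate of Myl9 was high as well. Myl9 lies on plate 38, whose probes had a median log2 ratio of 0.26, 0.40 and 0.29 on NY1DD replicates 1 to 3. On C57BL/6J replicates 1 to 3 it was 0.19, 0.12 and -0.20, and there the array with the highest plate median had the lowest Myl9. No other of the 120 plates with at least 20 probes had a higher median on NY1DD replicates 2 and 3 or C57BL/6J replicate 1. When the median of each plate was subtracted, a correction chosen once the data had been seen, Myl9 in NY1DD went from 0.53 to 0.21 and in C57BL/6J from 0.25 to 0.22, its average from 0.39 to 0.21 and its strain difference from 0.28 to -0.0089. The same correction left the average of Slco1a4, on plate 45, at 0.26, and its strain difference at 0.41. The strains then overlapped for Slco1a4, since NY1DD replicate 2 stood at 0.17 and C57BL/6J replicate 2 at 0.20. Ly6e, on plate 27, went from 0.39 to 0.45 in the average. Subtracting the medians of plate rows and columns instead gave averages of 0.30 for Ly6e, 0.20 for Slco1a4 and 0.49 for Myl9. Ly6e then stood at 0.23, 0.22 and 0.22 on NY1DD replicates 1 to 3. On C57BL/6J replicates 1 to 3 it stood at 0.47, 0.39 and 0.26. Its strains were thus apart, by 0.23 against 0.26 at the closest, with a difference of -0.15 (limma adjusted p = 0.937). Before any correction the strains were apart for 9.41% of the features with 6 values in either direction. The share after the correction was not counted. What part the plate has in these ratios was not tested further.

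**Figure D3:**
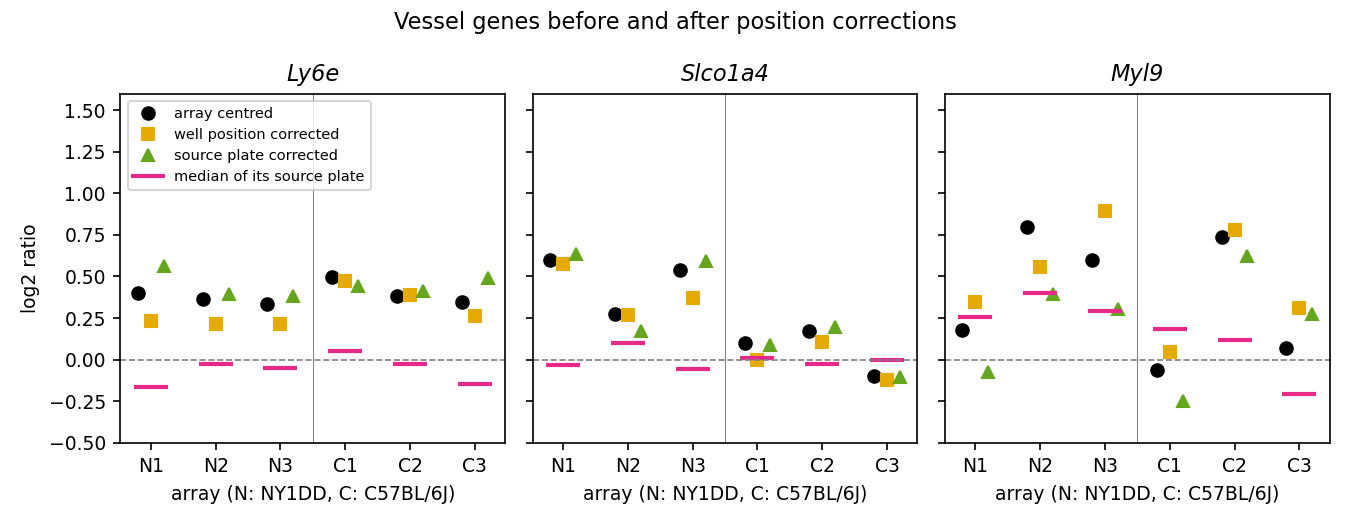
Log2 ratio (vertical axis) of the 3 genes on each array (horizontal axis), as centred, after removal of well row and column medians, and after removal of plate medians, with the median of the gene's own plate as a bar. On NY1DD arrays the plate of Myl9 has medians from 0.26 to 0.40, and the lowest value of Ly6e under any of them is 0.22.

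The vessel genes around them were read from lists of 82 endothelial and mural genes, of which 41 were measured besides the 3. None passed in any of the 4 comparisons (average, each strain against 0, strain difference; limma, Benjamini-Hochberg over all features), and neither did any of the 9685 features (0% in each). At an unadjusted p under 0.05 the average held 1043 features (10.8%). Of all 44 vessel genes these included 3, namely Ly6e, Slco1a4 and Myl9, so the count for the others is fixed by that choice. Of the 41 others, NY1DD held 1, Ly6c1, against 809 features (8.35%), and C57BL/6J 1, Pltp, against 671 (6.93%). These counts too are lowered by the choice, since all 3 genes left out were under 0.05 in NY1DD and Ly6e was in C57BL/6J. The strain difference held 2, Pltp and Cald1, against 4.5% of all features. Both were lower in NY1DD in the mean of their probes, but the probes of Pltp go opposite ways in this difference, as given below. Arrays of the strains were apart for 4 of the 38 with 6 values (10.5%), against 9.41% of all such features. In the average 28 of 41 were positive, with a median of 0.05, against 48.2% positive and a median of -0.01 over all features. In NY1DD 24 of 41 were positive (median 0.02), against 47.5% of all features (median -0.0155). In C57BL/6J 26 of 41 were positive (median 0.05), against 49.9% of all features (median -0.00069). Of the 38 with 6 values, 0 were positive on every array and 5 (13.2%) on at least 5, against 2.45% and 15.6% of all such features. The 3 genes left out of the 38 were chosen with their signs known, so a contrast with them follows from the choice. Ly6e, Myl9 and Slco1a4 have the 3 smallest p-values of the average among these 44 genes, which is how they stand out and was known when they were chosen. Next to them in that order come Myh11, smooth muscle myosin heavy chain, with an average of -0.30 (SE 0.14), and Bsg, which encodes basigin, a glycoprotein of barrier endothelium, with 0.28 (SE 0.13).

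**Figure D4:**
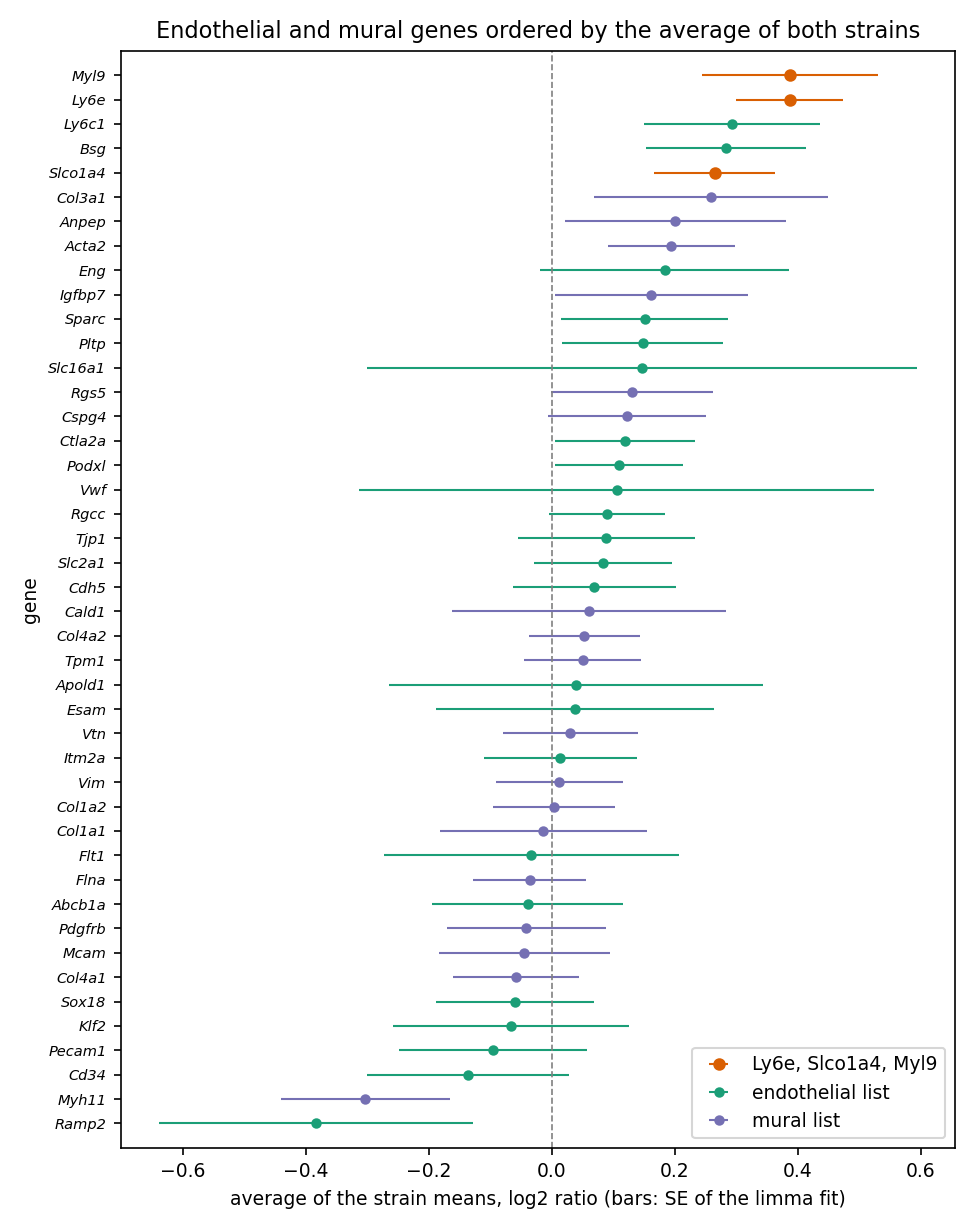
Average of the strain means (horizontal axis, log2 ratio; bars are the SE of the limma fit) for the 44 measured vessel genes (vertical axis), ordered by size. Myl9 and Ly6e stand at the top with 0.39 each, Slco1a4 has 0.26, and 13 of the 41 other genes are negative.

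Among the other endothelial genes 16 of 23 were positive in the average (median 0.08). Ly6c1, an Ly6 protein of brain endothelium, had 0.29 (SE 0.14), with arrays from 0.19 to 0.93 in NY1DD and from -0.29 to 0.46 in C57BL/6J. Pltp, a phospholipid transfer protein, had 0.15 (SE 0.13). The negative side held Ramp2, a partner of the adrenomedullin receptor, with -0.38 (SE 0.26), the surface sialomucin Cd34 with -0.14 (SE 0.16), and Pecam1, an adhesion protein of endothelial junctions, with -0.10 (SE 0.15). In the strain difference the smallest p belonged to Pltp, with -0.76 (SE 0.26, limma adjusted p = 0.969), and to Rgcc, a cell cycle regulator, with 0.43 (SE 0.19, limma adjusted p = 0.969). The 2 probes of Pltp go opposite ways. The first had means of 0.49 in NY1DD and -0.05 in C57BL/6J, the other -0.95 in NY1DD and 1.10 in C57BL/6J. The first lies in the well beside Myl9 on plate 38.

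Among the genes listed as mural 12 of 18 were positive in the average (median 0.04). That list includes collagen genes, Flna and Vim, and which cells made their RNA here was not tested. Acta2, smooth muscle actin, had 0.19 (SE 0.10), the collagen gene Col3a1 0.26 (SE 0.19), and Anpep, an aminopeptidase of pericytes, 0.20 (SE 0.18). Besides Myh11, the negative genes named by p are Col4a1, a collagen of the basement membrane, with -0.06 (SE 0.10) and Flna, an actin crosslinker, with -0.04 (SE 0.09). In the strain difference Cald1, which encodes the actin-binding protein caldesmon, had -1.29 (SE 0.45, limma adjusted p = 0.969), from probes that differ in C57BL/6J, with means of -0.06 and 1.48. Pdgfrb, the pericyte receptor for platelet-derived growth factor, had 0.36 (SE 0.26).

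The families of the 3 genes held both signs in the average, where 48.2% of all features were positive. Of the 5 measured relatives in the Ly6 list, 2 were positive in the average and 3 negative (median -0.09). Ly6h, a neuronal member, had 0.06 (SE 0.12) and Lynx1, which binds nicotinic receptors, -0.15 (SE 0.13). Cd59a, an inhibitor of complement, and Lypd1 had -0.09 each (SE 0.10 and 0.25), and Ly6g6d, outside that list, -0.03 (SE 0.11). Of the 5 measured organic anion transporters and efflux pumps, 3 were negative (median -0.04). Slco2b1, a transporter of the same superfamily as Slco1a4, was negative on all 6 arrays, from -1.67 to -0.10, with an average of -0.72 (SE 0.24, limma adjusted p = 0.341), and its strains were level with a difference of -0.0043. Slco3a1 had 0.19 (SE 0.27). The efflux pumps Abcc1 and Abcb1a, the second being P-glycoprotein of the barrier, had -0.30 (SE 0.16) and -0.04 (SE 0.16). The organic anion transporter Slc22a8 had 0.11 (SE 0.12). No other Slco1 gene was measured under its own symbol here. Whether the Slco1a4 probe binds RNA of its close relatives was not tested.

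For myosin II and its regulators 6 of 11 were positive in the average (median 0.06). Myl12b, a regulatory light chain of nonmuscle myosin close in sequence to Myl9, had 0.12 (SE 0.11) from 3 probes whose averages were -0.04, 0.19 and 0.19. The essential light chain Myl6 had -0.11 (SE 0.11). Calm2 and Calm3, calmodulin genes whose product activates myosin light chain kinase, had 0.30 (SE 0.13) and 0.25 (SE 0.13), and in the strain difference Calm3 had 0.28 (SE 0.27). Ppp1r12b, a subunit of myosin phosphatase, had -0.33 (SE 0.22) in the average and -0.50 (SE 0.44) in the strain difference. The limma adjusted p of these genes in the average was 0.458 or above.

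Markers of other brain cells are given beside these values. Their part in the ratios of Ly6e, Slco1a4 and Myl9 was not tested. In the average, 7 of 13 astrocyte genes were positive (median 0.04), 8 of 13 oligodendrocyte genes (0.09), 9 of 14 neuron genes (0.01), 2 of 5 microglial genes (-0.0011), 3 of 7 choroid plexus and ependyma genes (-0.13) and 1 of 2 blood genes (0.07). The gene with the smallest p of each list in the average was S100b for astrocytes with -0.34, Mal for oligodendrocytes with 0.32 and Gad1 for neurons with -0.65. For microglia it was Laptm5 with 0.40, for the choroid plexus Slc4a5 with -0.54, and for blood Ppbp, a platelet chemokine, with 0.26. Of these lists, Laptm5, the neuronal release gene Snap25 with 0.41 and the choroid plexus folate receptor gene Folr1 with 0.60 were positive on all 6 arrays; they are named after their values were seen. The other microglial genes were C1qa with -0.26, C1qb with -0.0011, Ctss with 0.07 and Tmem119 with -0.35.

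The genes most like each of the 3 were taken by the root mean square difference of log2 ratios over the 6 arrays, among 5856 other genes with all values. Nearest to Ly6e were Wasf1, an activator of actin branching, at 0.0883, Slc12a2, a chloride cotransporter, at 0.107, and Pdlim1 at 0.107. Nearest to Slco1a4 were Cnep1r1 at 0.102, Maf1, a repressor of RNA polymerase III, at 0.110, and Aldh18a1, an enzyme of proline synthesis, at 0.118. Nearest to Myl9 were Sh3gl3, an endophilin, at 0.172, Cadm1, a cell adhesion protein, at 0.197, and Sgpp2, a sphingosine phosphate phosphatase, at 0.219. The median over all candidates was 0.507 for Ly6e, 0.485 for Slco1a4 and 0.606 for Myl9. None of these neighbours belongs to the vessel lists, and nearness over 6 arrays among so many genes is a description only.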

How the data were processed

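The authors deposited natural log (ln) ratios of the Cy5 and Cy3 channels. Base e was inferred, since 403 of 67941 values turn into multiples of 0.1 with it (tolerance 1e-06) and 1 with base 2. Software, numerator and normalization were not given in the sources used here. No single-channel signal was used, which leaves signal over background unknown; the number of arrays limits the precision. Of 11532 spots, 30 controls were left out. Values at the lower limit (293) were set missing. Probes needed 2 values per strain, arrays were centred on the median, ratios were turned to log2, and probes of one symbol were averaged. Limma 3.58.1 (R 4.3.3) fitted strain means to all 6 arrays; two-sided p-values were adjusted by Benjamini-Hochberg over 9685 features and called under 0.05. The fit was tried on simulated independent noise, with added shifts larger than the averages of the 3 genes and no plate, well or dye effects. That trial does not bear on ratios as small as these. Genes beside the 3 were named by p within lists: 3 per sign in the average and 2 in the strain difference, plus family members and the first gene of other cell types. The members and lists were chosen with earlier results of these data known. Alternatives are given in the closing section.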

Additional observations from a re-analysis of the deposited data

Results flagged for a closer look

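Among the genes named, Pltp and Cd59a lay on opposite sides of 0 in the strains on every array, as did 193 of 9175 features with 6 values (2.1%). Pltp was negative on all NY1DD arrays and positive on all C57BL/6J arrays, with NY1DD minus C57BL/6J at -0.76 (SE 0.26, limma adjusted p = 0.969), and its 2 probes disagree. Cd59a was negative on all NY1DD arrays and between 0.01 and 0.03 on the C57BL/6J arrays, with a difference of -0.22 (SE 0.20, limma adjusted p = 0.969). Neither difference passed. Groups of 3 arrays are too small for a check of single outlying arrays.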

How the results depend on the processing

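The 3 genes were recomputed under 9 planned settings besides leaving out each array, and under the plate correction chosen after seeing the data. In the setting without C57BL/6J replicate 1 the strain difference of Ly6e turned to 0.0024. Its range over arrays left out was -0.072 to 0.0024. The well position correction took the average of Ly6e to 0.30 and its NY1DD mean to 0.22. The plate correction took them to 0.45 and 0.45, and took the NY1DD mean of Myl9 to 0.21 and its strain difference to -0.0089. Leaving out arrays gave strain differences from 0.34 to 0.51 for Slco1a4 and from 0.12 to 0.52 for Myl9. The C57BL/6J mean of Slco1a4 ran from -0.0019 to 0.13, and that of Myl9 from 0.0045 to 0.41. Without C57BL/6J replicate 2 the strain difference of Myl9 was 0.52, without NY1DD replicate 1 it was 0.45, without NY1DD replicate 2 it was 0.14 and without C57BL/6J replicate 1 it was 0.12. The cause of these shifts was not tested. Over all settings the limma adjusted p of the strain difference ran from 0.824 to 1.00 for Slco1a4, and 0 features passed in the average or the strain difference. With the replicate block the strain differences were -0.04, 0.42 and 0.28 for Ly6e, Slco1a4 and Myl9, and no call changed. Deviations of same-numbered arrays from their strain means correlated at -0.07, 0.05 and 0.02, against -0.09 to 0.07 for arrays of unlike number. These values cannot show whether the arrays were processed in pairs.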
